A study of Arabidopsis thaliana with 20 samples.

Results

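The 42 genes described here encode proteins of the cytosolic ribosome of *Arabidopsis thaliana*, and were chosen by gene ID as nuclear genes for proteins of the large and the small subunit, several of them with paralogs. They are 42 of the 37184 genes in the count tables. Subunits and protein families were assigned by hand from gene symbols, the products named in the TAIR10.1 annotation and general knowledge of the proteins, since that annotation does not name a subunit for every gene. On this basis 25 belong to the large subunit, 14 to the small subunit and 3 to the stalk of the large subunit with its base. They fall into 26 families, of which 13 are represented by more than 1 gene and hold 29 of the 42 genes, and 13 by a single gene.

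The cytosolic ribosome is built of a small subunit, which holds the mRNA and reads its codons, and a large subunit, which joins the amino acids and carries a flexible stalk where the elongation factors dock. Each ribosome holds a single copy of nearly every ribosomal protein, so a cell that builds ribosomes must make these proteins in equal numbers, and in plants each of them is encoded by a small family of near-identical genes. In a seed, mRNAs of ribosomal proteins made during embryo growth and maturation are known to persist in the dry state, next to those of storage proteins and late embryogenesis proteins.

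Total RNA of wild type Col-0 (WT) and of *msh-1* was sequenced by 3'RNA-seq in 4 libraries per genotype. *msh-1* is a single T-DNA insertion line in the same Col-0 background, in which the insertion disrupts the transcriptional unit of the long non-coding RNA *MUSHER*, downstream of the dormancy gene *DOG1*; *MUSHER* itself was not analysed here. The labels give the tissue as siliques 13 to 20 days after pollination, from soil-grown greenhouse plants under 16 h light and 8 h dark at 22 and 18 °C, whereas the study's text speaks of freshly harvested seeds and of biological replicates. In 3'RNA-seq the cDNA is primed from the polyA tail, so a count marks the 3' end of a transcript and does not grow with transcript length. Levels of different genes are set side by side on this ground, which does not cover reads lost or shared between similar or overlapping genes.

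The libraries held 959004 to 2498295 counts in WT and 2590800 to 6500907 in *msh-1*, so each *msh-1* library was deeper than each WT library, and depth and genotype cannot be told apart. The lowest and the highest of these totals belong to WT replicate 4 and *msh-1* replicate 1, which also had the lowest sum of green tissue markers in their genotype, and the main results are given without them as well. Levels are given as CPM, edgeR's counts relative to library size, scaled by edgeR's TMM factors. Markers of the maturing seed (10 genes of cruciferins, 2S albumins, oleosins and late embryogenesis proteins) summed to between 94193 and 108646 CPM in every library. Green tissue markers (10 genes) summed to 27.4 in WT replicate 4 and 58.9 in *msh-1* replicate 1, against 110 to 138 in the other WT and 182 to 209 in the other *msh-1* libraries. None of 8 markers of dividing cells passed the filter on low counts, and these summed to between 1.91 and 4.26 CPM. Of 5 markers of seed coat and endosperm, *EPR1* alone passed.

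*SAG24* (AT1G66580, also named *RPL10C*) had the highest level of the 42 genes. It encodes 1 of the 3 forms of protein L10 among the 42 genes, which sits near the tRNA binding sites of the large subunit and, in yeast, is among the last proteins added to it. *SAG24* had 214, 199, 203 and 216 CPM in WT replicates 1 to 4 and 183, 216, 213 and 230 CPM in *msh-1* replicates 1 to 4. Its lowest library, at 183 CPM, lay above the highest library of any other of these genes, at 128 CPM. By mean level it ranked 373 among the 10902 genes tested. The gene lies on chromosome 1 from 24839090 to 24840806 on the plus strand.

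The other forms of L10 are encoded by *SAC52* (AT1G14320, or *RPL10A*), known from a dominant mutation that suppresses the dwarfism of a thermospermine synthase mutant, and *RPL10B* (AT1G26910). *SAC52* had 111, 113, 111 and 101 CPM in WT and 116, 126, 112 and 117 CPM in *msh-1*, and lies on chromosome 1 from 4888114 to 4889704. *RPL10B*, on chromosome 1 from 9321650 to 9323028, had 3, 6, 7 and 1 counts in WT and 17, 13, 20 and 23 counts in *msh-1*. These counts were 2.31, 2.51, 2.80 and 1.10 CPM and 2.73, 4.97, 6.18 and 5.44 CPM, so that *msh-1* replicate 1 fell within the WT range and the other 3 *msh-1* libraries above it. The 3 proteins are 94.1% to 96.8% identical, yet *SAG24* took 64.1% of the family's counts, *SAC52* 34.8% and *RPL10B* 1.1% as means over the 8 libraries. *RPL10B* held at most 0.885% (lowest 0.345%) in the WT libraries and at least 0.904% (highest 1.87%) in the *msh-1* libraries, so its shares did not overlap, on the low counts given above.

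The 250 bases before the annotated start of the 3 *L10* genes are shown because these genes encode nearly the same protein at such different levels. They were read from the TAIR10.1 genome, from 5' to 3' on the plus strand, at chr1:24838840-24839089 for *SAG24*, chr1:4887864-4888113 for *SAC52* and chr1:9321400-9321649 for *RPL10B*, and capitals mark site II elements (TGGGCC or TGGGCT on either strand).
SAG24: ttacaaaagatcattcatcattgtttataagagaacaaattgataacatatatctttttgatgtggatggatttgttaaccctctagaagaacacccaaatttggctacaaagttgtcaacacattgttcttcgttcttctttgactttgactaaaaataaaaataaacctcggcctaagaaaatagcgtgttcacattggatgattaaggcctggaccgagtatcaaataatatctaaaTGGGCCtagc
SAC52: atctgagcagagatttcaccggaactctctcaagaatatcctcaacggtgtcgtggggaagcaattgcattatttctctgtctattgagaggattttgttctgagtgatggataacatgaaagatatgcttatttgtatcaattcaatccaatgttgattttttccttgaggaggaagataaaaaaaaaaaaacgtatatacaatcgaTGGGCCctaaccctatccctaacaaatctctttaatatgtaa
RPL10B: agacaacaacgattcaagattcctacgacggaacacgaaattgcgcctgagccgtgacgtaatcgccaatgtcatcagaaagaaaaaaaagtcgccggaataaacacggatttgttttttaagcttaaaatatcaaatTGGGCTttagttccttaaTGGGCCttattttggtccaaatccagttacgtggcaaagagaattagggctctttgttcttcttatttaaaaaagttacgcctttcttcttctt

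In these windows *SAG24* and *SAC52* hold 1 site II element each and *RPL10B* holds 2. A second motif known from promoters of ribosomal protein genes in Arabidopsis, the telo-box (AAACCCTA on either strand), was not found in these letters. In the 50 bases after the start, which are not printed, *SAG24* holds a telo-box and *SAC52* a further site II element. *RPL10B* holds neither motif there. Site II elements are known as binding sites of TCP transcription factors. Over the window from 250 bases before to 50 bases after the start, 33 of the 42 genes (78.6%) hold a site II element, 26 (61.9%) hold 2 or more, 21 (50.0%) hold a telo-box and 16 (38.1%) hold both motifs. Of all 27443 promoters of protein-coding genes of the same length, 21.7% hold a site II element, 13.7% hold 2 or more, 6.2% hold a telo-box and 2.2% hold both. The 171 other genes taken by a rule on the annotation, described with their values later on, hold them in like shares, with 76.0% for site II, 66.1% for 2 or more, 48.5% for the telo-box and 42.1% for both. Neither motif was found in the windows of *RPL23AA*, *RPS5B*, *RPS13A* and AT3G13580.

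**Figure D1:**
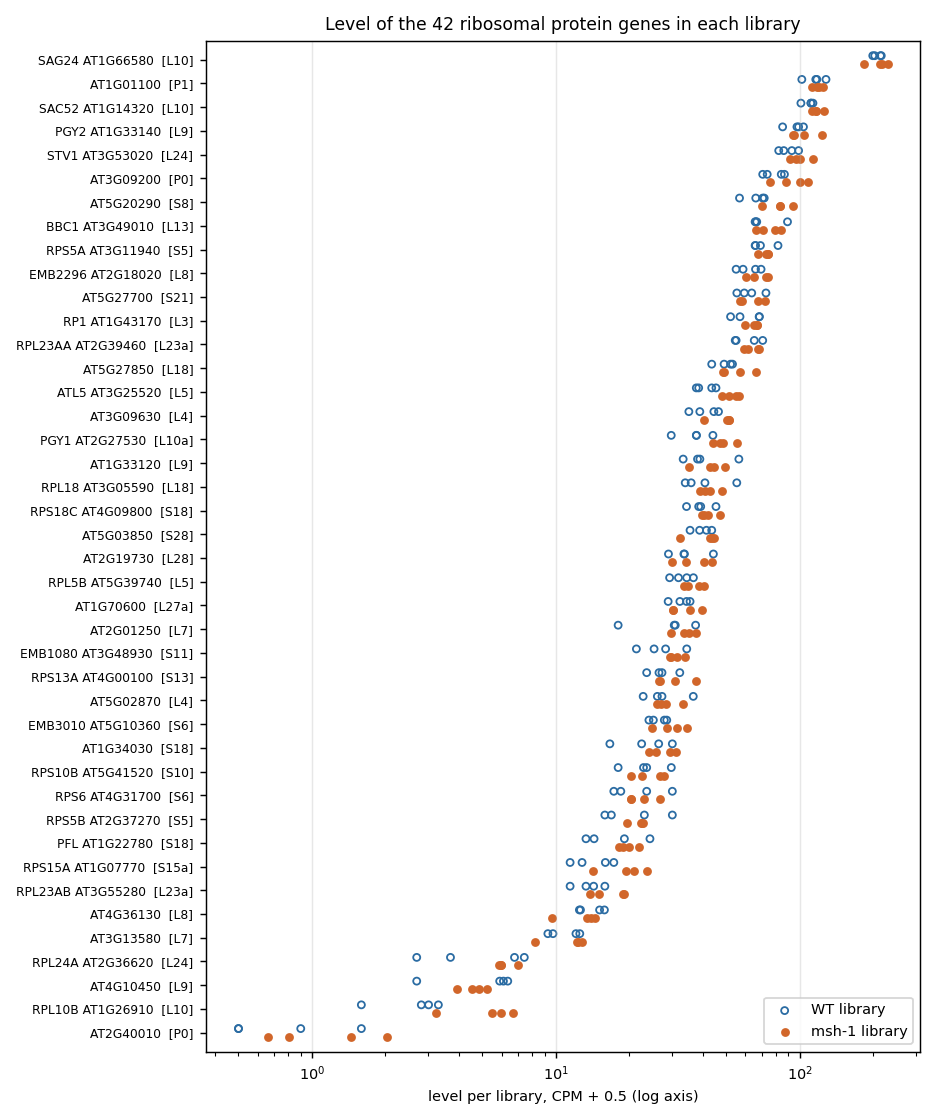
Level of each of the 42 ribosomal protein genes in each of the 8 libraries, as CPM + 0.5 on a log axis, with open blue circles for WT and filled orange circles for *msh-1*; the family of each gene is in brackets and genes are ordered by their mean level. *SAG24* lies apart at the top, *RPL10B* and AT2G40010 at the bottom, and for nearly every gene the circles of both genotypes are mixed.

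Next to *SAG24* in the order of levels came AT1G01100, annotated as a 60S acidic ribosomal protein and 1 of the P1 proteins of the stalk. It had 128, 102, 116 and 117 CPM in WT and 124, 119, 112 and 118 CPM in *msh-1*. These ranges overlap those of *SAC52*, so the order of both genes is not set. *PGY2* (AT1G33140) followed with 84.7, 97.1, 103 and 98.6 CPM in WT and 123, 104, 94.6 and 93.3 CPM in *msh-1*. It encodes L9, and its mutants are known for altered leaf polarity.

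*STV1* (AT3G53020, *RPL24B*), which encodes L24 and is known to help ribosomes to start again after a short upstream reading frame, had 81.6, 92.5, 85.6 and 98.6 CPM in WT. In *msh-1* it had 113, 96.0, 90.6 and 100 CPM. AT3G09200, 1 of the 2 genes for the stalk base P0 among the 42, had 73.2, 86.2, 83.6 and 70.1 CPM in WT and 107, 99.8, 75.1 and 87.1 CPM in *msh-1*. The ranges of *PGY2*, *STV1* and AT3G09200 overlap in both genotypes, so their order is not set.

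Of the 42 genes, 14 had a mean over all libraries above 50 CPM, 19 lay between 20 and 50 CPM and 9 lay under 20 CPM, with a median of 37.7 CPM. Summed over a family, the levels ran from 326 CPM for L10 to 16.5 CPM for S15a. The stalk and the large subunit held most of the high families, with L10, L9 (146 CPM), P1 (117 CPM), L24 (99.9 CPM) and L18 (93.5 CPM) at the top. Among the families represented here, the highest of the small subunit was S5, at 92.1 CPM, whose protein lies by the exit of the mRNA channel. Families are represented here by the chosen genes only, so a family with further paralogs would have a higher sum. For S15a, *RPS15AD* (AT3G46040), which is not among them, had a mean of 44.7 CPM by itself. Families with no chosen gene are missing from this order, such as those of AT3G53740 (L36e, mean of 157 CPM) and AT3G53870 (S3, mean of 108 CPM).

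In the fit of all genes with edgeR's quasi-likelihood test, none of the 40 ribosomal protein genes that passed the filter on low counts was called between WT and *msh-1* (more than 1.5-fold at an adjusted p below 0.05), where 0.413% of the 10902 genes tested were called. The filter left out AT2G40010 and *RPL10B*. DESeq2 and limma-voom called none of the 40 either. At an unadjusted p under 0.05, 4 of the 40 were higher in *msh-1* and none was lower, against 3.99% of all genes tested that were higher and 4.49% that were lower. For 34 of the 40 genes the 95% confidence interval of the change stayed within 1.5-fold in both directions. The interval reached 1.5-fold upward for 5 genes and downward for 1, and reached 2-fold for none.

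The fitted log2 fold change was above 0, that is higher in *msh-1*, for 38 of the 40 genes, or 95%, against 48% of all genes tested. Its median over the 40 genes was 0.12, or 1.08-fold, against -0.01 over all genes tested. All 40 values come from the same 8 libraries and the same scaling factors, so they are not 40 separate measurements of a difference. By subunit, the median was 0.11 for 24 genes of the large subunit (22 above 0), 0.15 for 14 genes of the small subunit (all above 0) and 0.13 for 2 genes of the stalk (both above 0). In bulk RNA, more cells that express these genes and more of their RNA per cell cannot be told apart.

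**Figure D2:**
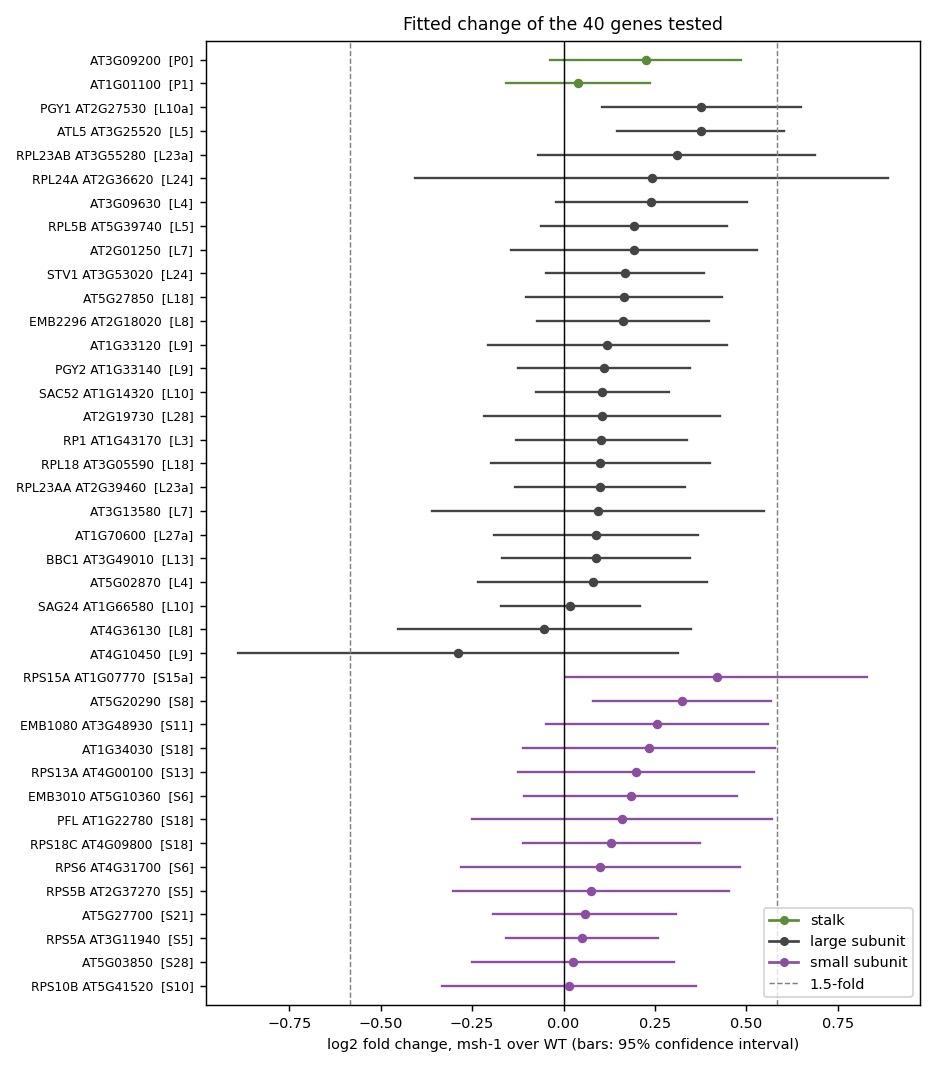
Fitted log2 fold change of *msh-1* over WT for the 40 genes tested (dots) with its 95% confidence interval (bars), by subunit, with dashed lines at 1.5-fold. The dots of 38 genes lie to the right of 0, and the intervals of 34 lie between the dashed lines.

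*ATL5* (AT3G25520) encodes L5, which carries the 5S rRNA into the large subunit, and lies on chromosome 3 from 9269277 to 9271465 on the minus strand. It had 43.1, 38.1, 37.2 and 44.9 CPM in WT and 54.2, 55.8, 50.7 and 47.6 CPM in *msh-1*. No WT library reached the lowest *msh-1* library, which made *ATL5* the only 1 of the 40 genes whose groups did not overlap in either direction. Of the 10902 genes tested, every *msh-1* library was above every WT library in 280 (2.57%) and below every WT library in 239. In edgeR's quasi-likelihood fit across all genes the log2 fold change of *ATL5* was 0.37 (standard error 0.11, 95% confidence interval 0.15 to 0.60), with an adjusted p of 0.22. Over the alternatives run, which include DESeq2 and limma-voom, its adjusted p ran from 0.0915 (without WT replicate 4 and *msh-1* replicate 1) to 0.62 (without WT replicate 3).

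Its paralog *RPL5B* (AT5G39740), whose protein is 97.7% identical, had 36.2, 31.4, 28.8 and 34.0 CPM in WT and 39.96, 34.4, 33.1 and 38.1 CPM in *msh-1*, and these ranges overlap. The log2 fold change of *RPL5B* was 0.19 (standard error 0.12, adjusted p = 0.72 by edgeR's quasi-likelihood test).

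*PGY1* (AT2G27530) encodes L10a, the protein of the mobile stalk where the tRNA leaves the ribosome. It had 29.3, 37.2, 43.6 and 37.2 CPM in WT and 54.9, 43.6, 46.7 and 48.1 CPM in *msh-1*, where the highest WT library touched the lowest *msh-1* library at 43.6 CPM. The log2 fold change of *PGY1* was 0.38 (standard error 0.13, adjusted p = 0.35 by edgeR's quasi-likelihood test). *RPS15A* (AT1G07770), for protein S15a of the small subunit, had the largest fitted change of the 40 genes. *RPS15A* had 12.3, 15.5, 16.8 and 10.96 CPM in WT and 23.1, 13.8, 18.9 and 20.4 CPM in *msh-1*, and its fitted log2 change was 0.42 (standard error 0.19, adjusted p = 0.58 by the same test). *msh-1* replicate 2 lay inside the WT range. The fourth gene with an unadjusted p under 0.05 was AT5G20290, for protein S8 of the small subunit. AT5G20290 had 56.2, 71.1, 65.6 and 70.1 CPM in WT and 93.7, 82.6, 69.9 and 82.9 CPM in *msh-1*, and its fitted log2 change was 0.32 (adjusted p = 0.38 by the same test).

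At the other end, AT4G10450, the weakest of the 3 chosen genes for L9, had the lowest log2 fold change, -0.29 (standard error 0.28, adjusted p = 0.84 by edgeR's quasi-likelihood test). Its levels were 5.39, 5.86, 5.60 and 2.19 CPM in WT and 4.33, 3.44, 4.02 and 4.73 CPM in *msh-1*, where the value of WT replicate 4 rests on 2 counts. AT4G36130, for protein L8 near the catalytic centre of the large subunit, had 14.6, 12.1, 12.0 and 15.3 CPM in WT and 13.5, 9.18, 13.0 and 14.0 CPM in *msh-1*, and a log2 fold change of -0.05 (standard error 0.19). *RPS10B* (AT5G41520), for S10 of the small subunit, had 23.1, 29.3, 22.4 and 17.5 CPM in WT and 26.2, 22.2, 19.8 and 27.2 CPM in *msh-1*. Its log2 fold change was 0.02 (standard error 0.16), and the WT range covered all *msh-1* libraries.

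Among the 6 genes with the highest levels, the log2 fold change was 0.02 for *SAG24*, 0.04 for AT1G01100, 0.11 for *SAC52*, 0.11 for *PGY2*, 0.17 for *STV1* and 0.22 for AT3G09200, with standard errors from 0.08 to 0.12. Their adjusted p-values ran from 0.66 to 0.997 by edgeR's quasi-likelihood test. The 95% confidence interval of *SAG24* ran from -0.17 to 0.21 and that of *SAC52* from -0.08 to 0.29.

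The remaining single-gene families of the large subunit had log2 fold changes of 0.09 for *BBC1* (AT3G49010, L13), 0.10 for *RP1* (AT1G43170, L3, which reaches toward the peptidyl transferase centre), 0.09 for AT1G70600 (L27a) and 0.10 for AT2G19730 (L28). *BBC1* had 65.2 to 88.7 CPM in WT and 65.6 to 83.7 CPM in *msh-1*, and *RP1* 51.6 to 67.9 CPM and 59.4 to 66.5 CPM. In the small subunit they were 0.25 for *EMB1080* (AT3G48930, S11), 0.20 for *RPS13A* (AT4G00100, S13, whose mutant has pointed first leaves), 0.06 for AT5G27700 (S21) and 0.03 for AT5G03850 (S28). *EMB1080* had 20.9 to 34.0 CPM in WT and 28.9 to 33.4 CPM in *msh-1*. AT5G27700 was the highest of these 4 small-subunit genes, with 54.8 to 72.3 CPM in WT and 56.6 to 71.9 CPM in *msh-1*. The WT and *msh-1* ranges of all 8 genes overlap.

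The sum of all 42 genes was 1834, 1844, 1821 and 2032 CPM in WT replicates 1 to 4 and 2189, 2025, 1933 and 2035 CPM in *msh-1* replicates 1 to 4. The means were 1883 ± 100.0 CPM and 2046 ± 106 CPM (mean ± SD, n = 4), and the ranges overlap through WT replicate 4. Unscaled, the 42 genes held 0.177% to 0.193% of all counts in WT and 0.196% to 0.210% in *msh-1*, which do not overlap. Without WT replicate 4 and *msh-1* replicate 1, the sums were 1839 to 1861 CPM in WT and 1959 to 2061 CPM in *msh-1* and did not overlap either. These sums are a description and were not tested.

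**Figure D3:**
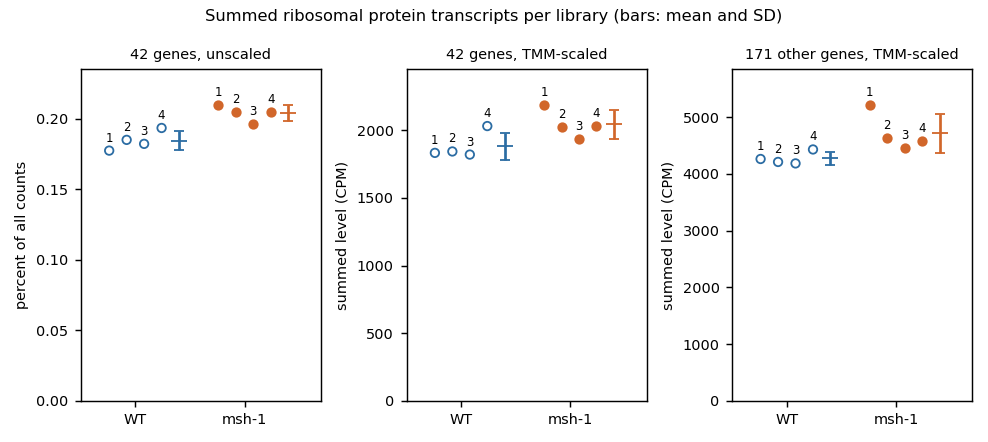
Summed ribosomal protein transcripts per library: the 42 genes as percent of all counts (left) and as TMM-scaled CPM (middle), and 171 other genes, taken by a rule on the annotation, as CPM (right), with replicate numbers above the circles and the mean with its SD beside them. The *msh-1* circles lie above the WT circles on the left and right, and in the middle WT replicate 4 (2032 CPM) lies above *msh-1* replicate 3 (1933 CPM).

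Library by library, the 40 tested genes were not evenly split around their means. Their median deviation from each gene's own mean, in log2 units of CPM + 0.5, was -0.11, -0.07, -0.11 and 0.06 in WT and 0.20, 0.03, -0.02 and 0.05 in *msh-1*. In *msh-1* replicate 1, 38 of the 40 genes lay above their own mean, and in WT replicate 3, 7 did. WT replicate 4, the shallowest library, had 25 above and also the widest scatter, and *msh-1* replicate 3 had 16. The genotypes therefore overlapped in this measure too. *msh-1* replicate 1 has the greatest depth of all libraries and, as above, the lowest sum of green tissue markers in its genotype. Of the 10 green tissue markers, all were tested, 9 had a log2 fold change above 0 and none was called. Their median log2 fold change was 0.47. For *CAB2*, *RBCS3B* and *LHCB5* every *msh-1* library was above every WT library, as for 2.57% of all genes tested. Their counts in WT were 2, 10, 10 and 1 for *CAB2*, 1, 5, 9 and 1 for *RBCS3B*, and 6, 8, 10 and 0 for *LHCB5*. The WT libraries of these genes alone would not have passed the filter on low counts, so no p-value is given for them. The part of depth and of green tissue in the level of the 40 ribosomal protein genes was not tested.

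**Figure D4:**
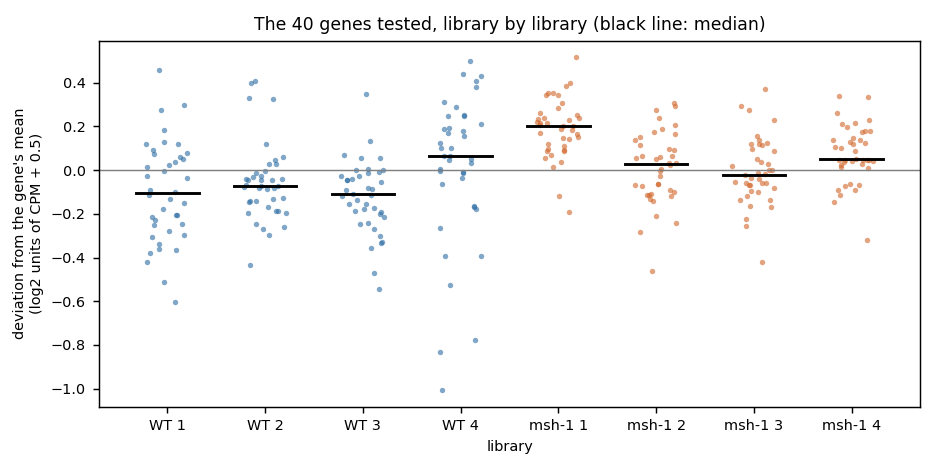
Deviation of each of the 40 genes tested from its own mean over all libraries, in log2 units of CPM + 0.5, for each library (WT blue, *msh-1* orange; black lines are medians). The medians run from -0.11 in WT replicate 3 to 0.20 in *msh-1* replicate 1, and WT replicate 4 lies above 0 with a wide scatter.

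In the fit without WT replicate 4 and *msh-1* replicate 1, 41 of the 42 genes passed the filter and none was called, while 2.53% of 11088 genes tested were called. *RPL10B* passed only through its level in *msh-1*, so it is left out of what follows. Of the other 40, the log2 fold change was above 0 for 36, against 49% of all genes, with a median of 0.14. At an unadjusted p under 0.05, 3 of the 40 were higher in *msh-1*, namely *ATL5*, AT5G20290 and *PGY1*, against 6.21% of all genes tested. In all 8 libraries the means of *RPL10B* were 2.18 ± 0.75 CPM for WT against 4.83 ± 1.49 CPM for *msh-1* (mean ± SD, n = 4). These means rest on the low counts given above, and no test result is given for this gene.

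AT2G40010, the other gene for P0 among the 42, was at the limit of what these libraries show, with 0, 0, 1 and 1 counts in WT and 1, 4, 1 and 4 counts in *msh-1*. A floor of 3 counts is 1.20 to 3.29 CPM in the WT libraries and 0.481 to 1.15 CPM in the *msh-1* libraries, so no change can be given for it at this depth. Its product is 82.2% identical to that of AT3G09200, the least similar pair of the 42 genes. AT3G09200 held 98.5% to 100% of the pair's counts in every library, and AT3G11250, whose annotated product is of the same family, was not analysed here.

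Within the families, the question is which paralog supplies the transcript, and this share does not depend on the scaling between libraries. In 11 of the 13 families with more than 1 gene the same gene led in all 8 libraries. The means of the leading share differed between WT and *msh-1* by at most 3.25 percentage points, and its ranges overlapped in 12 of the 13 families. Of the shares of all 29 genes, 3 did not overlap, those of both L8 genes, which add up to 100%, and that of *RPL10B*. Shares were not computed for other gene families. By level, the groups did not overlap for 280 of the 10902 genes tested with *msh-1* higher and for 239 with *msh-1* lower. These shares were not tested, and a family here is the chosen genes only.

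**Figure D5:**
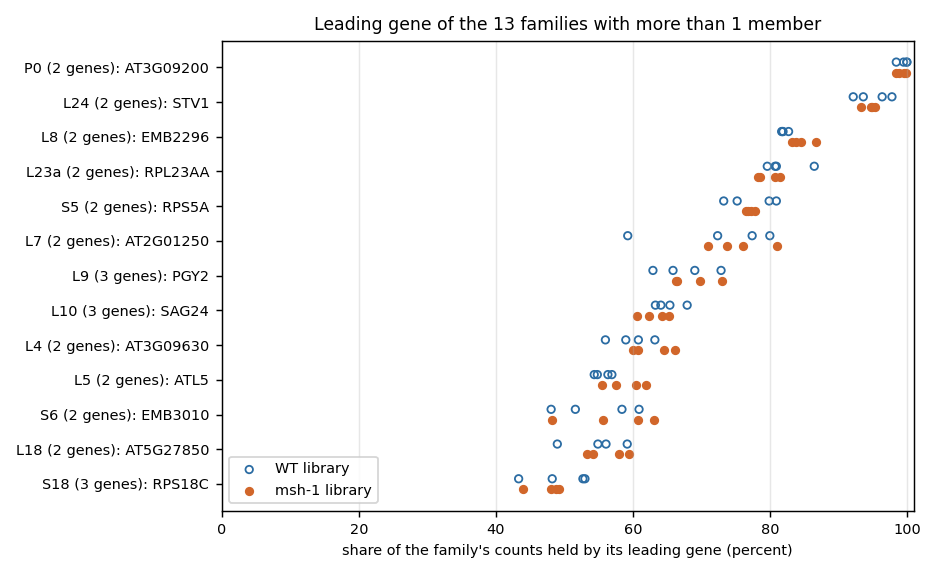
Share of a family's counts held by its leading gene, in percent, for the 13 families with more than 1 gene, with open blue circles for WT libraries and filled orange circles for *msh-1* libraries. Families run from P0, where AT3G09200 holds nearly all counts, to S18, where *RPS18C* holds 43.3% to 53.0%, and the circles of both genotypes are mixed except for L8.

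The most uneven pairs were P0, L24 and L8. *STV1* held 92.2%, 93.6%, 96.4% and 97.8% of the L24 counts in WT and 95.4%, 94.7%, 93.3% and 94.8% in *msh-1*. Its partner *RPL24A* (AT2G36620) had 6.93, 6.28, 3.20 and 2.19 CPM in WT and 5.46, 5.35, 6.49 and 5.44 CPM in *msh-1*, while their proteins are 92.1% identical. The *RPL24A* value of WT replicate 4 rests on 2 counts. *EMB2296* (AT2G18020) held 81.7%, 82.7%, 81.9% and 81.8% of the L8 counts in WT and 84.5%, 86.7%, 83.2% and 83.9% in *msh-1*, the only leading share whose groups did not overlap. It is also the only pair whose genes share sequence at their 3' ends. Of the 351 windows of 50 bases over the last 400 bases of the transcript, AT4G36130 shares 254 with *EMB2296* or with the overlapping AT4G36140, so its counts are uncertain. *EMB2296* itself had 65.5, 58.2, 54.4 and 69.0 CPM in WT and 73.5, 60.04, 64.3 and 72.7 CPM in *msh-1*, with a log2 fold change of 0.16 (standard error 0.11).

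The most even pairs were L18, S6 and L5. *RPL18* (AT3G05590) and AT5G27850 encode L18 proteins that are 95.7% identical. *RPL18* had 35.4, 33.5, 40.4 and 54.8 CPM in WT and 47.7, 38.6, 40.5 and 42.4 CPM in *msh-1*. AT5G27850 had 43.1, 48.5, 51.6 and 52.6 CPM in WT and 65.8, 56.6, 47.9 and 48.3 CPM in *msh-1*, and led in every library but WT replicate 4. It shares 207 of its 351 windows with the overlapping AT5G27860, so part of its counts may belong to that gene.

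Protein S6 is the target of the S6 kinases, which act downstream of TOR. *RPS6* (AT4G31700) had 23.1, 18.0, 16.8 and 29.6 CPM in WT and 19.9, 19.9, 26.3 and 22.5 CPM in *msh-1*. *EMB3010* (AT5G10360, or *RPS6B*) had 24.6, 28.03, 23.6 and 27.4 CPM in WT and 30.8, 34.0, 24.4 and 28.2 CPM in *msh-1*. *EMB3010* held 51.6%, 60.9%, 58.4% and 48.1% of the family's counts in WT and 60.8%, 63.1%, 48.2% and 55.6% in *msh-1*, so the leading gene of this pair changed from library to library within both genotypes. For L5, *ATL5* held 54.4% to 56.9% in WT and 55.5% to 61.9% in *msh-1*.

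The 3 genes for S18 encode proteins of 152 residues that are identical, so only the transcripts tell them apart. S18 sits in the head of the small subunit, and *PFL* (AT1G22780) is named after the pointed first leaves of its mutant. *PFL*, on chromosome 1 from 8067864 to 8069356, had 13.9, 23.8, 12.8 and 18.6 CPM in WT and 21.5, 17.6, 19.5 and 18.5 CPM in *msh-1*. AT1G34030, on chromosome 1 from 12370065 to 12371554, had 16.2, 25.9, 22.0 and 29.6 CPM in WT and 29.0, 23.7, 30.6 and 25.3 CPM in *msh-1*. *RPS18C* (AT4G09800), on chromosome 4 from 6173712 to 6175200, had 33.9, 38.1, 38.8 and 44.9 CPM in WT and 46.9, 40.2, 39.3 and 41.7 CPM in *msh-1*. *RPS18C* led in every library, with 43.3% to 53.0% of the family's counts in WT and 43.9% to 49.3% in *msh-1*, above AT1G34030 (means of 29.1% and 30.7%) and *PFL* (means of 21.6% and 21.8%). Their log2 fold changes were 0.16, 0.23 and 0.13 in the order of this paragraph, with adjusted p-values of 0.88, 0.75 and 0.81 by edgeR's quasi-likelihood test.

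A similar case is L9, where *PGY2* and AT1G33120 encode the same 194 residues and AT4G10450 differs from them at 22 of the 194, an identity of 88.7%. *PGY2* lies on chromosome 1 from 12023225 to 12024783, and AT1G33120 close by from 12010879 to 12012547, both on the plus strand. AT4G10450 lies on chromosome 4 from 6462918 to 6464558. AT1G33120 had 38.5, 37.7, 32.8 and 55.9 CPM in WT and 48.8, 34.8, 43.9 and 42.6 CPM in *msh-1*, with a log2 fold change of 0.12 (standard error 0.15). *PGY2* held 62.9% to 72.9% of the family's counts in WT and 66.3% to 73.0% in *msh-1*. The 3' ends of *PGY2* and AT1G33120 share none of the 351 windows, so their transcripts can be told apart where their proteins cannot.

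In the other 4 pairs, the leading gene held 59.8 ± 3.0% of the L4 counts in WT and 62.9 ± 3.0% in *msh-1* (AT3G09630), and 72.3 ± 9.2% and 75.5 ± 4.3% of the L7 counts (AT2G01250). For L23a it held 82.0 ± 3.1% and 79.8 ± 1.6% (*RPL23AA*, AT2G39460), and for S5 77.3 ± 3.7% and 77.1 ± 0.5% (*RPS5A*, AT3G11940), all as mean ± SD over 4 libraries. L4 lines the tunnel through which the new chain leaves, and L23a stands at its mouth. AT3G09630 and AT5G02870 had log2 fold changes of 0.24 and 0.08, AT2G01250 and AT3G13580 of 0.19 and 0.09, *RPL23AA* and *RPL23AB* (AT3G55280) of 0.10 and 0.31, and *RPS5A* and *RPS5B* (AT2G37270) of 0.05 and 0.08. The lowest adjusted p among these 8 genes was 0.62, by edgeR's quasi-likelihood test.

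The 42 genes were set beside 171 other genes, taken by a rule on the wording of their annotation (a structural constituent of the ribosome, with a cytosolic or 40S or 60S ribosomal protein named in the product, note or similarity text, and no plastid or mitochondrial wording in name, product or note). The rule missed 11 of the 42 genes themselves, and it let in genes whose product names no ribosomal protein, such as *emb1129* and the ubiquitin fusion genes *UBQ5* and *UBQ6*, and possibly proteins of organelle type, so these genes are an approximate list. Of these, 142 passed the filter, 13 had no count in any library, and none was called by edgeR's quasi-likelihood test. The log2 fold change was above 0 for 118 of the 142 (83.1%), with a median of 0.19, and 26 had an unadjusted p under 0.05 in the direction of *msh-1* and 1 in the direction of WT, against 3.99% and 4.49% of all genes tested. Their sum was 4186 to 4432 CPM in WT and 4454 to 5219 CPM in *msh-1*, which do not overlap. Without WT replicate 4 and *msh-1* replicate 1, the fold change was above 0 for 107 of 142, the median was 0.16, and the number with an unadjusted p under 0.05 in the direction of *msh-1* was 13, against 6.21% of all genes tested. The highest value was that of *XW6* (AT1G58380, a ribosomal protein S5 family protein), with a log2 fold change of 1.03. It had 6, 9, 13 and 3 counts in WT and 51, 20, 34 and 40 counts in *msh-1*, and is among the 26 genes above. Its WT libraries alone would not have passed the filter on low counts, so no p-value is given for it. The lowest was that of *rps15ae* (AT4G29430), annotated as ribosomal protein S15A E, at -0.87. It had 6, 13, 10 and 5 counts in WT and 19, 7, 7 and 10 counts in *msh-1*. This gene is the 1 counted above in the direction of WT. It passed the filter on low counts only through its level in WT, so no p-value is given for it.

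Translation needs other factors besides ribosomes, and none of the listed genes in these groups was called. Of 18 genes for elongation factors and associated proteins, 14 were tested and 13 had a log2 fold change above 0, with a median of 0.11. The highest was *ATARCA* (AT1G18080), the RACK1 scaffold of the small subunit, at 0.42 (standard error 0.16, adjusted p = 0.42 by edgeR's quasi-likelihood test). The lowest was AT1G57720, an EF1B gamma chain, at -0.0038. Of 12 genes for initiation factors and poly(A)-binding proteins, all were tested and 6 lay above 0, with a median of 0.01, from -0.13 for *TIF3H1*, a subunit of eIF3, to 0.31 for *LSP1*, an isoform of the cap-binding protein.

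Ribosome biogenesis takes place in the nucleolus, and 14 of its 16 listed genes were tested. Of these, 10 lay above 0, with a median of 0.17. *NAP57* (AT3G57150), the pseudouridine synthase of the small nucleolar particles, had the highest log2 fold change, 0.52 (standard error 0.13, adjusted p = 0.15 by edgeR's quasi-likelihood test), and AT4G31420, annotated as a zinc finger protein, the lowest, -0.21. The 5 listed genes of the TOR and S6 kinases and of the transcription factors *TCP20* and *NAC082* ran from -0.10 for *NAC082* to 0.23 for *PK1* (AT3G08730), an S6 kinase. The plastid ribosome, which is of bacterial type, served as a further comparison. Of 30 nuclear genes for its proteins, 28 were tested and 18 lay above 0, with a median of 0.04, from -0.77 for *emb2394* (AT1G05190, adjusted p = 0.38 by the same test) to 0.40 for *RPL21C* (AT1G35680).

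The spread between replicates sets what these libraries can show. The coefficient of variation of a tested gene's CPM had a median of 13.2% in WT and 11.2% in *msh-1* over the 40 genes, against 19.5% and 14.3% over all genes tested, whose median level was lower (15.5 CPM against 40.2 CPM). Whether counting took account of strand is not stated. Another gene overlaps the 3' end of AT2G40010, AT4G36130, AT5G27850, *RPL24A*, *EMB1080* and *RPS18C*, so reads of these neighbours may be counted with theirs. The 3' ends of 39 of the 42 genes share no window of 50 bases with the annotated mRNA of another nuclear gene. Non-coding transcripts were not compared.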

How the data were processed

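Counts of 8 3'RNA-seq libraries, 4 of WT and 4 of *msh-1*, were used. The authors aligned reads with STAR 2.7.8a to TAIR10, separated the libraries with BRBseqTools and deposited raw counts per gene, without normalization; the primers for reverse transcription carried molecular identifiers (UMIs), but whether these were used in counting is not given in the sources used here, nor are the annotation and strand setting. Library totals ran from 959004 to 6500907 counts. ChIRP-seq and ChIDP-seq were not used here.

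In R 4.3.3, genotypes were compared with edgeR 4.0.16 (filterByExpr, TMM factors, quasi-likelihood F test), with p-values adjusted by Benjamini-Hochberg over the 10902 genes tested. The standard error of a log2 fold change is its size over the root of its F statistic. P-values judge the difference between the genotypes against the spread between these libraries. For named genes, log2(CPM + 0.5) was also compared by exact permutation of the libraries (two-sided), a test whose smallest possible p is 0.029. These permutation p-values are not given. Between replicates the chi-square per gene was at least 1.53, so each library was counted as 1 sample. The code was tested on simulated data. Alternatives were other scaling factors and filters, DESeq2 1.42.0, limma-voom (limma 3.58.1), a replicate block, and libraries left out.

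Symbols, coordinates, sequences and protein identities (from translated coding sequences) were taken from the RefSeq annotation of TAIR10.1 by gene ID; 36899 of 37184 IDs matched its nuclear genes. Values of every library are given for the 6 genes with the highest levels, the 3 highest and 3 lowest fold changes, genes whose groups do not overlap, families of 3, the 3 most even and 3 most uneven pairs, and genes that failed the filter; of other lists, the highest and lowest fold change are named. AT5G20290 falls outside this rule and was named after its values were seen. The 42 genes and the gene lists were chosen with earlier results of these data known.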

Additional observations from a re-analysis of the deposited data

Results flagged for a closer look

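In 10 of 128 groups of 4 libraries, the highest or the lowest library lay farther from the others than Dixon's 95% critical value allows, where 6.4 are expected by chance. WT replicate 4 had the highest level of *BBC1* (AT3G49010), at 88.7 CPM with the next library at 66.2. It had the lowest level of AT4G10450, at 2.19 CPM, which is 2 counts and lies under the floor of 3 counts. Among the WT libraries it also had the highest sum of the 42 genes (2032 CPM) and of the large-subunit genes (1311 CPM). *msh-1* replicate 1 had the highest sum of the small-subunit genes, at 574 CPM. *msh-1* replicate 3 had the lowest level of AT3G09630 (39.9 CPM, with the next library at 50.1) and of AT3G13580 (7.73 CPM), and the highest of *RPL24A* (AT2G36620, 6.49 CPM). *msh-1* replicate 4 had the lowest level of *RPS5B* (AT2G37270, 19.2 CPM) and of AT5G03850 (31.7 CPM).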

How the results depend on the processing

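None of the ribosomal protein genes was called under any alternative run. The number of called genes among all genes, 45 in the reported fit, was 25 with library totals only, 89 with DESeq2, 24 with limma-voom, 438 without a filter and 280 without WT replicate 4 and *msh-1* replicate 1. Leaving out single libraries gave 4 (no WT replicate 3) to 210 (no *msh-1* replicate 1). The cause was not tested. Little sign of a pairing by replicate number was seen. Deviations of same-numbered libraries correlated at -0.22, 0.15, 0.06 and -0.09, and only replicate 2 correlated best with its own number. Such correlations cannot exclude a pairing. With the replicate block 24 genes were called. The median log2 fold change of the ribosomal protein genes stayed between 0.09 and 0.18 with single libraries left out. Of 414 values for 23 genes under 18 alternatives, 402 kept their direction and 12 near 0 turned it. *RPS10B* (AT5G41520) was at -0.10 without WT replicate 4 and *msh-1* replicate 1. With single libraries left out, the log2 fold change ran from -0.058 to 0.17 for *RPS10B*, -0.025 to 0.091 for *SAG24* (AT1G66580), -0.025 to 0.089 for AT1G01100, -0.11 to 0.045 for AT4G36130, -0.0060 to 0.42 for *PFL* (AT1G22780), -0.00038 to 0.22 for *RPL18* (AT3G05590) and -0.022 to 0.23 for *RPS6* (AT4G31700). Depth limits most what can be said of AT2G40010 and *RPL10B*.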

Other observations

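Outside the 42 genes, the gene with the highest level in the approximate list of ribosomal protein genes was AT3G53740, of the L36e family, with a mean of 157 CPM over all libraries and a log2 fold change of 0.01 (standard error 0.10). It was followed by AT3G53870, of the S3 family, at 108 CPM and 0.11 (standard error 0.09), and by AT2G34480, of the L18ae family, at 103 CPM and 0.06 (standard error 0.11). None of these reached the level of *SAG24*. Among the low genes of the same list, AT1G57860 had 5, 15, 18 and 3 counts in WT and 70, 23, 43 and 43 counts in *msh-1*, and its fitted log2 change was 0.94. Its WT libraries alone would not have passed the filter on low counts, so no p-value is given for it. AT1G57860 was named after its values were seen.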
